A study of Homo sapiens with 8 samples.

Results

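The sites described here are the crosslink counts at positions 26 and 27 of human tRNAs, the hinge between the D arm and the anticodon stem. They were chosen by position: every sense-strand site of a tRNA reference that lay 26 or 27 bases from the reference's 5' end in any of 8 iCLIP libraries. There were 330 such sites among 8363 tRNA sense sites and 18831 sites of all kinds. They fell on 179 of the 252 tRNA references and in all 49 isoacceptor families, a family being the references that share an amino acid and an anticodon. Position 26 held counts in 169 references and position 27 in 161. Of the 330 sites, 267 had 10 or more counts over the 8 libraries, 56 were seen in all 8 and 32 in 1 library. The antisense strand at these positions held 6 counts in total. The reference named Asn-26-1, whose name gives no anticodon, carried 1 hinge site and was placed in no family.

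The cells were Flp-In T-Rex 293, a human embryonic kidney line with an integration site for tetracycline-induced transgenes, and they expressed either 3xFLAG-DUS1L or 3xFLAG-DUS2L. All 4 groups received tetracycline at 1 µg/mL for 12 h and again, in fresh medium, for another 12 h. In the 5-ClUrd groups the second medium also held 100 µM of 5-ClUrd (5-chlorouridine, a chlorinated uridine analogue); the untreated groups had tetracycline alone. Each of the groups DUS1L untreated, DUS1L 5-ClUrd, DUS2L untreated and DUS2L 5-ClUrd had 2 libraries, called biological replicates in the series text. No library without a tagged enzyme was analysed here. Both proteins came from an induced transgene, and the labels name no deletion of the endogenous enzymes.

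DUS1L and DUS2L are dihydrouridine synthases, which reduce uridine to dihydrouridine in the D loop of tRNA. The hinge lies just 3' of the D arm: position 26 in standard numbering stacks between the D stem and the anticodon stem, is often a guanosine, and is dimethylated by TRMT1 in many tRNAs, while position 27 opens the anticodon stem. In iCLIP, tagged protein is immunoprecipitated with the RNA bound to it, and reverse transcription that ends at the crosslinked base marks the contact at single-base resolution. The D loop differs in length between tRNAs, so a count from the 5' end is not the standard number of a base in every family.

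The hinge held a large share of the tRNA sense counts in every library. Whether these counts mark protein contact or other ends of reverse transcription was not tested. Positions 26 and 27 together held 12.1% and 25.2% of the tRNA sense counts in the DUS1L untreated libraries 1 and 2, and 10.9% and 11.4% in the DUS1L 5-ClUrd libraries. In the DUS2L untreated libraries they held 16.4% and 17.4%, and in the DUS2L 5-ClUrd libraries 14.7% and 10.5%. The DUS1L untreated library 2 stood apart from the other 7, which lay between 10.5% and 17.4%. Position 26 ranked first or second among the 65 to 76 positions with counts in each library, and position 27 ranked between 3 and 6. The group means at position 26 were 14.0% ± 9.55 (SD, n = 2) for DUS1L untreated, 6.41% ± 0.161 for DUS1L 5-ClUrd, 9.47% ± 0.00572 for DUS2L untreated and 7.50% ± 1.12 for DUS2L 5-ClUrd. At position 27 they were 4.70% ± 0.266, 4.70% ± 0.179, 7.41% ± 0.731 and 5.08% ± 1.88 in the same order. The neighbouring position 25 held between 1.82% and 4.41% in the 8 libraries and position 28 between 0.376% and 2.06% in each. The drop from position 27 to 28 was seen with both enzymes, whereas position 25, at 4.21% ± 0.283 in the DUS1L 5-ClUrd group, was close to position 27 there.

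**Figure D1:**
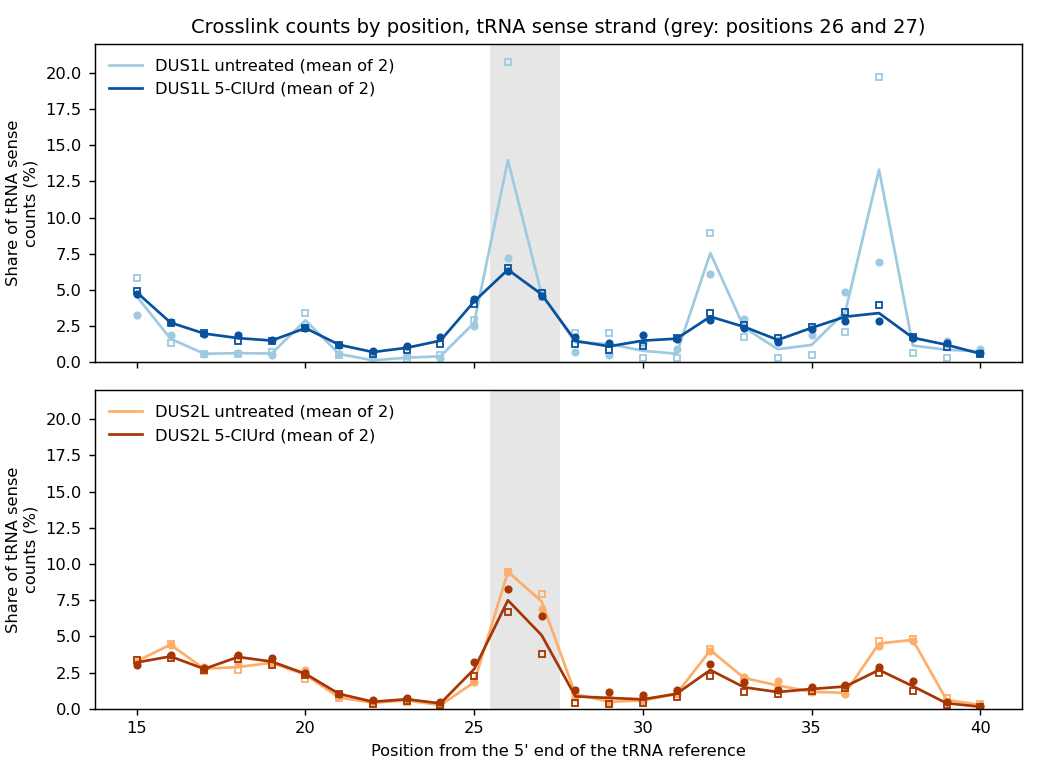
Share of the tRNA sense counts (%) at positions 15 to 40 from the 5' end, for DUS1L (top) and DUS2L (bottom). Lines are means of 2 libraries, filled circles library 1 and open squares library 2. The grey band marks positions 26 and 27, where position 26 ranks first or second of all positions in each of the 8 libraries.

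Depth differed widely and bears on every value. The libraries held 7395 to 830326 counts, of which 7333 to 815735 were tRNA sense counts and 1851 to 88663 were hinge counts. The DUS1L untreated library 2 was the shallowest, with 71 hinge sites against 160 to 288 in the others. The largest count at a single hinge site was between 551 and 1316 in all 8 libraries, although their totals differed by far more. Hinge sites above 500 counts numbered 1 to 78 per library and carried 29.8% to 78.0% of the hinge counts. The part of this narrow range of largest counts in the results was not tested, but each comparison was also made without the sites that passed 500 counts in any library. Replicates differed by more than counting error over the hinge positions: chi-square per degree of freedom was 33.6, 43.4, 5.34 and 35.6 in the DUS1L untreated, DUS1L 5-ClUrd, DUS2L untreated and DUS2L 5-ClUrd groups.

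Families ranged from hinge shares near 0 to more than 60% of their own counts. Among families with at least 100 counts in both 5-ClUrd libraries, 20 of 43 in DUS1L and 23 of 47 in DUS2L had at least 10% of their own counts at positions 26 and 27. The 20 of DUS1L were all among the 23 of DUS2L, which also held Arg-CCG, Leu-AAG and Phe-GAA. Another 11 families in DUS1L and 17 in DUS2L lay under 1%.

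Serine tRNAs, which have a long variable arm, were concentrated at position 26, and Ser-AGA ranked first with both enzymes. It had 68.1% ± 0.343 (SD, n = 2) of its counts at the hinge with DUS1L and 5-ClUrd, and 63.8% ± 5.14 with DUS2L and 5-ClUrd. At position 26 alone the Ser-AGA values were 63.7% and 65.3% in the DUS1L 5-ClUrd libraries and 52.3% and 64.8% in the DUS2L 5-ClUrd libraries. The DUS2L untreated libraries had 74.6% and 76.1% there, while the DUS1L untreated libraries had only 13 and 7 Ser-AGA counts in all. The hinge share of Ser-GCT was 28.8% ± 1.52 with DUS1L and 43.2% ± 3.43 with DUS2L. Ser-TGA had 22.9% ± 2.08 and 32.7% ± 1.09. Ser-CGA held 21.7% ± 4.04 with DUS1L, and its position 26 alone gave 24.1% and 21.2% in the DUS2L 5-ClUrd libraries. All 4 serine families had far fewer counts at position 27, at most 7.86% in any 5-ClUrd library.

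Leucine tRNAs, which also have a long variable arm, were concentrated at position 27 with the exception of Leu-TAA. Leu-TAG had 51.4% and 63.3% of its counts at position 27 in the DUS1L 5-ClUrd libraries, from 695 and 643 counts, and 28.1% and 16.6% in the DUS2L 5-ClUrd libraries. Leu-CAA, most of whose genes carry an intron, had 39.7% and 34.7% with DUS1L and 25.7% and 29.6% with DUS2L. In Leu-CAG position 27 held 15.8% and 12.4% with DUS1L and 18.4% and 26.5% with DUS2L. Leu-AAG gave 27.4% and 16.2% with DUS2L and was not ranked in DUS1L, where it had 106 and 93 counts. Leu-TAA went the other way, with 15.3% and 18.0% at position 26 in the DUS1L 5-ClUrd libraries, 20.8% and 18.1% in the DUS2L 5-ClUrd libraries, and at most 2.97% at position 27.

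Isoleucine and asparagine tRNAs were also heaviest at position 27. Ile-GAT had 30.9% and 32.0% of its counts there with DUS1L and 5-ClUrd and 31.3% and 24.5% with DUS2L and 5-ClUrd. Ile-TAT gave 14.8% and 23.8% with DUS1L and 41.3% and 20.7% with DUS2L, so its replicates differed widely. Ile-AAT spread over both positions, and its hinge share was 19.9% ± 1.34 with DUS1L and 45.3% ± 0.0860 with DUS2L. Asn-GTT had a hinge share of 29.2% ± 2.08 with DUS1L, of which position 27 alone held 14.7% and 20.6%. The 3 threonine families Thr-AGT, Thr-CGT and Thr-TGT likewise had more counts at position 27, between 7.46% and 23.2% in the 5-ClUrd libraries.

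Arg-ACG, Arg-CCG, Arg-TCG, Phe-GAA, Met-CAT and Val-CAC were heavier at position 26 in each 5-ClUrd library, whereas Arg-TCT was heavier at position 27. Arg-ACG had 7.61% and 11.0% at position 26 in the DUS1L 5-ClUrd libraries and 33.2% and 34.2% in the DUS2L 5-ClUrd libraries. Phe-GAA had 3.66% and 5.97% against 17.2% and 18.8% in the same order. The elongator Met-CAT had 12.2% and 19.7% with DUS1L and 18.8% and 11.6% with DUS2L, values that overlap. Tyr-GTA, whose annotated genes carry an intron, was split: position 26 exceeded 27 with DUS1L (10.3% and 11.4% against 6.31% and 8.08%), and 27 exceeded 26 with DUS2L (30.4% and 22.6% against 16.3% and 12.5%). Its references differed. Over all libraries of an enzyme, Tyr-GTA-4-1 had more at 27 than 26 with both (DUS1L 8.93% against 6.80%, DUS2L 32.3% against 12.9%). Tyr-GTA-9-1, not found in the RefSeq annotation, had more at 26 with both (36.9% against 3.71%, and 32.9% against 2.12%). Tyr-GTA-7-1 had 16.9% at 26 and 16.3% at 27 in DUS1L, and 8.94% and 35.0% in DUS2L.

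**Figure D2:**
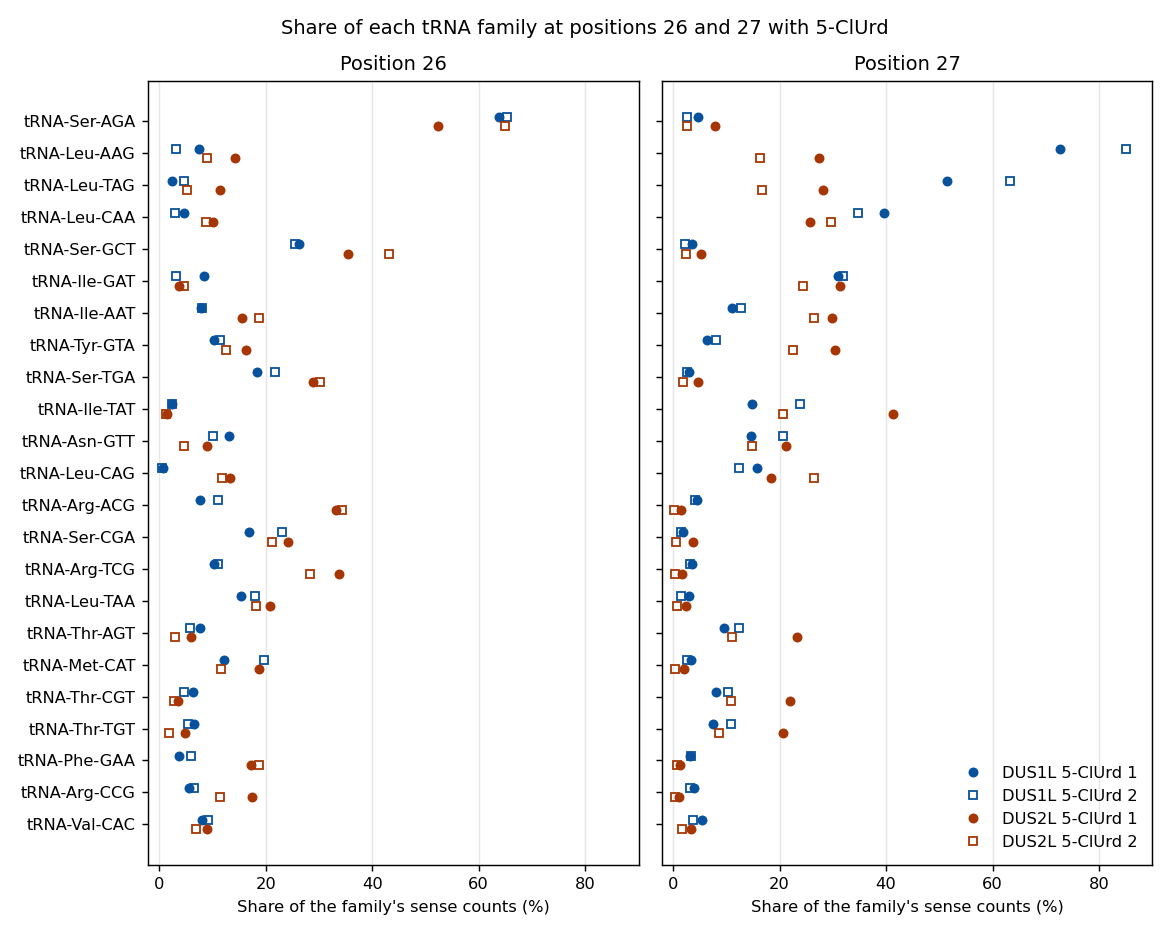
Share of each family's own sense counts (%) at position 26 (left) and position 27 (right) in the 4 libraries with 5-ClUrd, for families with a hinge share of at least 10% with either enzyme. Serine families lie at position 26 and most leucine, isoleucine and threonine families at position 27. The DUS1L values of Leu-AAG rest on 106 and 93 counts.

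Hardly any hinge counts were found in 10 families that lay under 1% with both enzymes: Asp-GTC, Cys-GCA, Gln-CTG, Gln-TTG, Glu-TTC, Gly-CCC, Gly-GCC, Gly-TCC, His-GTG and Val-TAC. In Gly-TCC the share was 0 in both DUS1L 5-ClUrd libraries and 0.00188% ± 0.00266 in the DUS2L 5-ClUrd libraries. His-GTG had 0.131% ± 0.0282 with DUS1L and 0.209% ± 0.0766 with DUS2L. Proline families were also low with DUS2L, from 0 for Pro-TGG to 0.261% ± 0.166 for Pro-AGG.

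The position that held more counts was mostly the same for both enzymes. Among families with at least 50 hinge counts in both 5-ClUrd groups, 28 of 30 had the same larger position with DUS1L and DUS2L, and the exceptions were Arg-CCT and Tyr-GTA. In the untreated groups it was 15 of 15. Treatment left it in place in 23 of 24 families of DUS2L, all but Asp-GTC, and in 18 of 21 of DUS1L, all but Arg-CCT, Tyr-GTA and Val-TAC. More families favoured position 26 than 27 in the DUS1L 5-ClUrd group (18 against 15), and the reverse held in the DUS2L 5-ClUrd group (17 against 20). These counts are descriptive, and the families of a library share its depth.

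The larger position differed between tRNA genes of 72, 73 and 74 bases. Gene lengths were taken from the RefSeq annotation of GRCh38.p14, where 398 of 412 gene names were found, and this pattern was noticed in the data and is given without a test. Of 206 references with at least 200 counts, 140 had at least 20 counts at positions 25 to 28 together and could be assigned a leading position among these 4. Among type I references, those without a long variable arm, 22 of 31 with 72-base genes led at position 25. For 73-base genes 26 of 37 led at position 26, and for 74-base genes 18 of 21 led at position 27. The 4 references with 71-base genes did not continue this order, as 1 led at position 25, 2 at 26 and 1 at 28. The median share at position 27 was 20.8% for 74-base genes, 1.54% for 73-base genes and 0.758% for 72-base genes, while at position 25 the medians ran 0.376%, 1.32% and 8.80% in the same order. All 16 serine references led at position 26, and 13 of 18 leucine references led at position 27, the other 5 being those of Leu-TAA and Leu-CAA-5-1. The leading position was the same in the libraries of both enzymes for 97 of 105 references with at least 20 such counts in each, which comprised 19 at position 25, 41 at position 26 and 37 at position 27.

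Several families held genes of different length, which shared an anticodon and differed in where their counts fell. In Ala-AGC, 6 references with 72-base genes had 8.59% of their pooled counts at position 25 and 1.29% at 26, whereas 3 with 73-base genes had 0.150% at position 25 and 17.0% at 26. In Thr-CGT, 2 references with 72-base genes had 18.1% at position 25 and 1.25% at 27, and 2 with 74-base genes had 0.154% and 17.5%. In Val-AAC, the 72-base gene had 21.1% at position 25 and 0.614% at 26, and the 4 with 73-base genes had 0.769% and 4.07%. Those 4 were not alike, with position 26 ranging from 0 in Val-AAC-2-1, which had 23015 counts, to 17.9% in Val-AAC-3-1. Low hinge shares of families such as Ala-CGC were thus not low over positions 25 to 28: Ala-CGC had 14.5% and 13.5% at position 25 in the DUS1L 5-ClUrd libraries. The same sites aligned on the anticodon, and the base at each site, were not analysed here, since no tRNA sequences were used.

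**Figure D3:**
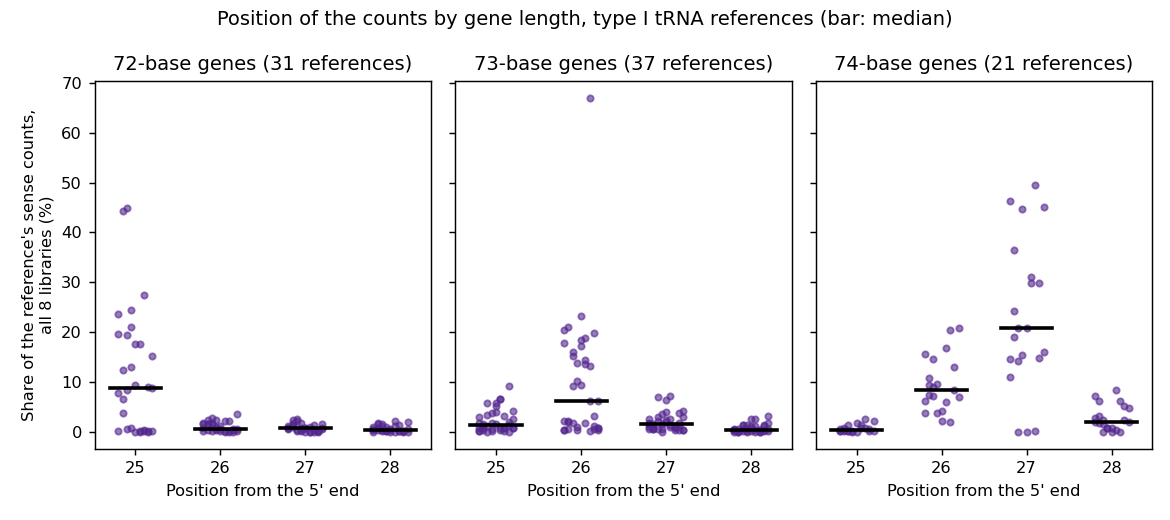
Share of each type I tRNA reference's sense counts over all 8 libraries (%) at positions 25 to 28, for genes of 72, 73 and 74 bases (31, 37 and 21 references). Points are references and bars are medians. The highest median lies at position 25 for 72-base, 26 for 73-base and 27 for 74-base genes.

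The families that supplied the hinge counts differed between enzymes and treatments, since family totals differed. Arginine tRNAs made up 51.9% and 63.5% of the hinge counts in the DUS1L untreated libraries and 21.8% and 21.0% in the DUS1L 5-ClUrd libraries. They made up 11.3% and 11.0% in the DUS2L untreated and 3.8% and 5.29% in the DUS2L 5-ClUrd libraries. Leucine tRNAs supplied 44.4% and 47.0% in DUS2L untreated and 34.4% and 32.5% with 5-ClUrd, against 0.354% and 0.864% in DUS1L untreated and 5.88% and 5.57% in DUS1L 5-ClUrd. Serine tRNAs supplied 1.01% and 4.97% in DUS1L untreated, 14.4% and 17.3% in DUS1L 5-ClUrd, 27.6% and 24.7% in DUS2L untreated and 29.5% and 35.3% in DUS2L 5-ClUrd. Leucine was the largest source in 3 of the DUS2L libraries and serine in the 5-ClUrd library 2. Threonine tRNAs supplied 1.29% and 1.35% untreated and 10.9% and 11.3% with 5-ClUrd in DUS1L, and 0.268% and 0.445% against 6.01% and 4.10% in DUS2L. A pooled hinge share therefore mixes where a family's counts fall with how much of that family was recovered.

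To ask whether 5-ClUrd moved counts to or from the hinge within a tRNA, the count of each family at each position was tested against the family's total, with edgeR's quasi-likelihood test and Benjamini-Hochberg adjustment over all family positions. For DUS1L, 27 families had enough counts in all 4 libraries, which gave 54 hinge positions. With 5-ClUrd 2 of the 54 rose and 1 fell, against 5.96% and 0.444% of all 1576 family positions. Without adjustment 11 and 4 had p under 0.05. The median log2 change was 0.41 at position 26 and 0.77 at position 27, against 1.52 over all positions tested. Rows entered on counts summed over the 4 libraries, so sparse rows could enter through the deeper 5-ClUrd libraries alone. Those held 815735 and 538002 tRNA sense counts, against 142422 and 7333 untreated. The values over all positions are therefore a limited yardstick for the hinge. In simulated data this fit recovered 28.5% of 8-fold changes.

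The fall was at position 26 of Arg-CCG, which held 15.6% and 61.5% of the family's counts in the DUS1L untreated libraries, the second from 371 counts, and 5.55% and 6.60% with 5-ClUrd. The groups did not overlap, as at 24 higher and 13 lower positions of the 54, a count not made over all family positions. The share fell by 2.66 on the log2 scale (SE 0.74, adjusted p = 0.0154 by edgeR). Position 26 of Ile-TAT was the first rise: it held 0.0509% and 0 untreated, which is 1 of 2016 counts, and 2.39% and 2.41% with 5-ClUrd. The ratio of the pooled shares was 48.3 (exact 95% interval 8.65 to 1912, for counting error only; adjusted p = 0.0154 by edgeR). Position 27 of Ala-TGC was the second rise, with 0 of 913 counts untreated and 1.86% and 1.23% with 5-ClUrd, at least 4.76-fold higher against the limit of 3 counts over the group (adjusted p = 0.0338 by edgeR). None of the 3 calls was left without either 5-ClUrd library, where 0 rose and 0 fell. Leaving out the DUS1L untreated library 1 ended both rises, and over the 4 omissions the adjusted p by edgeR reached 0.745 for Ala-TGC and 0.741 for Ile-TAT. Leaving out the untreated library 2 ended the fall of Arg-CCG, whose log2 change was then -1.36, and it was 2.92 once sites above 500 counts were left out. With TMM factors 1 rose and 1 fell, with the library total as offset 16 rose and 4 fell, and with the replicate number as a block 0 rose and 0 fell.

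For DUS2L, 46 families gave 77 hinge positions, of which 4 rose and 9 fell with 5-ClUrd, against 7.49% rising and 3.25% falling among all 1908 family positions. The falls made up 11.7% of the hinge positions and the rises 5.19%. The median log2 change was 0.28 at position 26 and 0.21 at position 27, against 0.56 over all positions tested. Here too the 5-ClUrd libraries were deeper, and sparse rows could enter through them alone. The libraries of the treatments did not overlap at any of the 13, but of all 77 hinge positions 25 were higher and 17 lower in both 5-ClUrd libraries than in both untreated ones. The same count was not made over all 1908 family positions, so it does not set the hinge apart.

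The falls at position 26 were in Val-CAC, Arg-CCG, Met-CAT and Ser-CGA. Val-CAC had 18.6% and 19.6% of its counts at position 26 in the DUS2L untreated libraries and 9.08% and 6.84% with 5-ClUrd. Its share fell by 1.27 on the log2 scale (SE 0.19, adjusted p = 1.22e-08 by edgeR), and it passed the threshold with each of the 4 libraries left out in turn. In DUS1L the same position held 12.3% and 17.3% untreated and 8.05% and 9.18% with 5-ClUrd. Met-CAT, the elongator methionine tRNA, had 36.2% and 36.1% untreated and 18.8% and 11.6% with 5-ClUrd, a fall by 1.25 (SE 0.30, adjusted p = 0.000714 by edgeR). Position 26 of Arg-CCG had 39.3% and 31.3% untreated and 17.4% and 11.4% with 5-ClUrd, a fall by 1.29 (SE 0.29, adjusted p = 0.000363 by edgeR). Its references differed: over the DUS2L libraries Arg-CCG-1-1 had 68.5% at position 26 and 10.3% at 27, from 2587 counts. Arg-CCG-2-1 had 0 and 0.0698%, from 5728 counts. Whether their mix changed with 5-ClUrd was not tested. The share of Ser-CGA was 34.1% and 35.4% untreated and 24.1% and 21.2% with 5-ClUrd, a fall by 0.62 (SE 0.16, adjusted p = 0.00334 by edgeR).

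The falls at position 27 were in Arg-CCG, Ile-AAT, Asn-GTT, Leu-AAG and Leu-TAG. Arg-CCG had the steepest, from 6.14% and 8.39% untreated to 1.11% and 0.317% with 5-ClUrd, a fall by 3.38 on the log2 scale (SE 0.72, adjusted p = 0.000147 by edgeR). Ile-AAT had 52.7% and 60.8% at position 27 untreated and 29.8% and 26.4% with 5-ClUrd (adjusted p = 0.00281 by edgeR), while its position 26 went from 9.32% and 7.83% to 15.5% and 18.8% without passing the threshold. Asn-GTT went from 32.0% and 31.1% to 21.1% and 14.8%, Leu-AAG from 35.0% and 36.4% to 27.4% and 16.2%, and Leu-TAG from 31.8% and 32.9% to 28.1% and 16.6%. Their log2 falls were by 0.81, 0.71 and 0.53. In 4 of these families position 27 was the larger hinge position, and in Arg-CCG it was 26.

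The 4 rises in DUS2L started from 7.70% of the family or less. Position 26 of Tyr-GTA held 0.592% and 5.03% untreated, from 169 and 179 counts of the family, and 16.3% and 12.5% with 5-ClUrd (log2 change 2.33, SE 0.81, adjusted p = 0.0419 by edgeR). Position 26 also rose in Leu-CAG, from 7.70% and 7.43% to 13.3% and 11.8%, and in Leu-CAA, from 6.02% and 5.57% to 10.0% and 8.72%. Their log2 changes were 0.73 and 0.70, with adjusted p of 0.0185 and 0.0423 by edgeR. In Asp-GTC position 27 went from 0.116% and 0.0961% to 0.794% and 0.325% (log2 change 2.40, adjusted p = 0.0321 by edgeR), at levels under 1% throughout.

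Of the 13 DUS2L calls, that of Val-CAC at position 26 was the 1 that passed with each library left out; its log2 change was -0.68 and missed the threshold once sites above 500 counts were left out. A fit of all 8 libraries, which shares their spread, could take only the 27 families with at least 20 counts in every library. The calls of Leu-AAG, Leu-TAG, Leu-CAG, Leu-CAA and Asp-GTC could not enter it. In that fit 0 rose and 1 fell. Val-CAC was among the calls lost (adjusted p = 0.156 by edgeR), with only Arg-CCG at position 27 passing among the falls. The fall of Arg-CCG at position 27 was lost without the untreated library 2 (log2 change -3.12, adjusted p = 0.153 by edgeR) and passed in all 10 other settings in which it could be fitted. Without the untreated library 1, 0 rose and 2 fell, and without the untreated library 2, 0 rose and 1 fell. The calls of Leu-AAG and Leu-TAG at position 27 were also lost without the 5-ClUrd library 2, with log2 changes of -0.38 and -0.20, and those of Asp-GTC, Tyr-GTA and Leu-CAA without the 5-ClUrd library 1, with log2 changes of 1.61, 2.12 and 0.59. With the library total as offset 16 rose and 11 fell, and the log2 change turned sign at Met-CAT 26 (0.23), Ile-AAT 27 (0.16), Leu-CAG 26 (-0.43) and Leu-CAA 26 (-0.44). With TMM factors 0 rose and 11 fell, which included all 9.

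**Figure D4:**
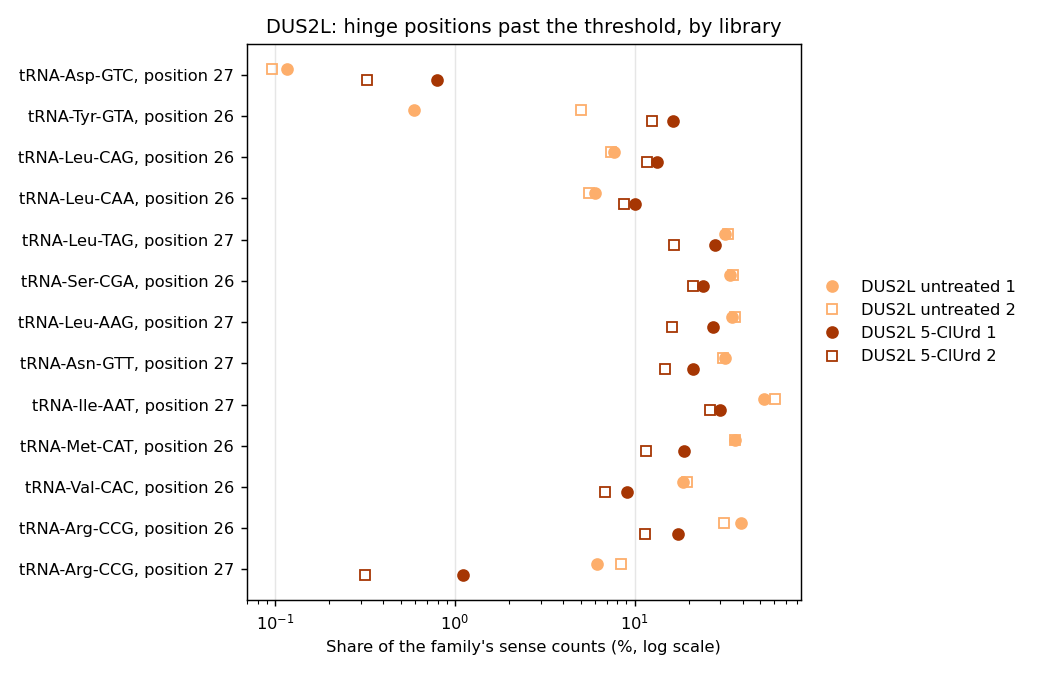
Share of the family's sense counts (%, log scale) at the 13 hinge positions past the threshold for DUS2L, in the 2 untreated and 2 5-ClUrd libraries. Circles are library 1 and squares library 2. The treatments do not overlap in any line, and 9 of 13 lie lower with 5-ClUrd. Among all 77 hinge positions tested, 25 were higher and 17 lower without overlap, a count not made over all family positions.

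Over all families pooled, the hinge share was 18.7% ± 9.29 (SD, n = 2) in DUS1L untreated and 11.1% ± 0.340 with 5-ClUrd, a difference of -7.57 percentage points. In DUS2L it was 16.9% ± 0.737 and 12.6% ± 3.00, a difference of -4.30 points. Both had p = 0.333 in an exact two-sided permutation test, the smallest that 2 against 2 libraries allow. The DUS1L difference was -0.999 points without the untreated library 2 and -14.1 points without the untreated library 1. It was 2.00 points, with the sign turned, once sites above 500 counts in any library were left out: 2.49% and 2.33% untreated against 4.82% and 4.02% with 5-ClUrd. Over both treatments DUS2L minus DUS1L was -0.163 points (exact two-sided permutation p = 0.944, 36 arrangements within treatment). That difference ranged from -3.45 to 3.12 points as each library was left out, the highest without the DUS1L untreated library 2.

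**Figure D5:**
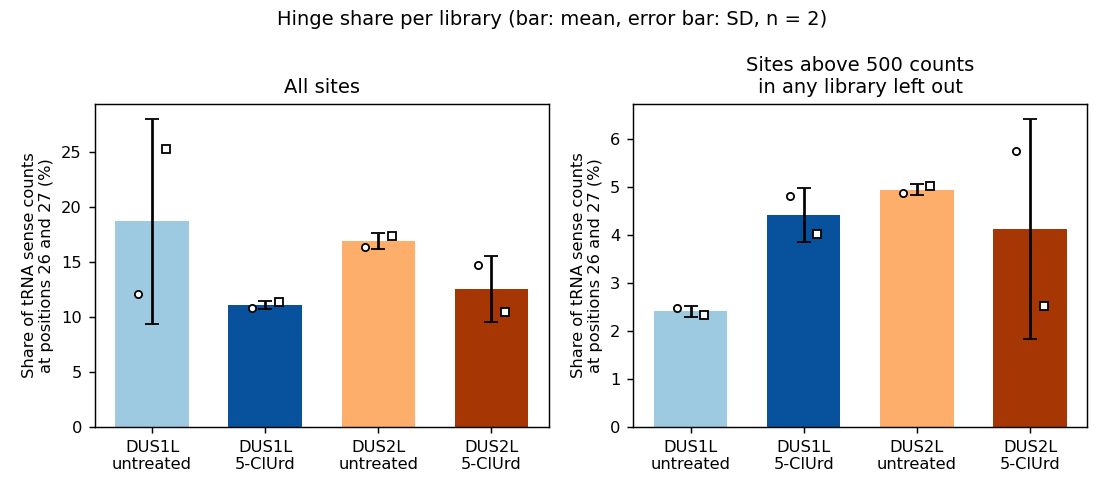
Share of tRNA sense counts (%) at positions 26 and 27 per library, with all sites (left) and without the sites above 500 counts in any library (right). Bars are group means, error bars SD (n = 2), circles library 1 and squares library 2. The DUS1L untreated group lies highest at left, through library 2, and lowest at right.

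The enzymes were compared within families as the mean over both treatments, on 27 families with enough counts in all 8 libraries. The names of the deposited files differ between the enzymes in a processing tag, so enzyme and any difference in processing cannot be told apart. Of 54 hinge positions, 4 were higher and 4 lower in DUS2L, against 6.1% higher and 15.9% lower among all 1607 family positions. The median log2 difference was 0.22 at position 26 and -0.29 at position 27, against -0.93 over all positions. Rows entered on counts summed over all 8 libraries, of which the DUS1L 5-ClUrd libraries were the deepest. Higher in DUS2L were position 26 of Ala-AGC, Arg-ACG and Arg-TCG and position 27 of Tyr-GTA. Ala-AGC had 0.741%, 0.500%, 2.92% and 1.75% in the DUS1L libraries and 9.80%, 10.5%, 6.15% and 2.73% in DUS2L, untreated before 5-ClUrd (log2 difference 2.41, SE 0.66, adjusted p = 0.00394 by edgeR). The DUS2L value with 5-ClUrd in library 2 lay below the highest DUS1L value. Single references went the other way. With the libraries of each enzyme pooled, every Ala-AGC reference with position 26 counts had a lower share there in DUS2L. Ala-AGC-8-2, with 73-base genes, had 20.03% in DUS1L and 12.6% in DUS2L, from 3465 and 4188 counts. Ala-AGC-2-1, with 72-base genes, had 1.66% and 0.429%, from 32437 and 1632 counts. Whether the mix of references gave the family difference was not tested. Arg-ACG had 25.6%, 20.1%, 7.61% and 11.0% in DUS1L and 30.6%, 29.5%, 33.2% and 34.2% in DUS2L, without overlap (log2 difference 1.13, SE 0.41, adjusted p = 0.0337 by edgeR). Tyr-GTA at position 27 had 29.7%, 16.4%, 6.31% and 8.08% in DUS1L and 36.1%, 50.8%, 30.4% and 22.6% in DUS2L (log2 difference 1.38, adjusted p = 0.0382 by edgeR). Arg-TCG at position 26 had 8.94%, 45.2%, 10.3% and 11.0% against 26.7%, 26.1%, 33.8% and 28.2% (log2 difference 0.76, adjusted p = 0.0475 by edgeR). The DUS1L untreated library 2 lay above every DUS2L value. Its references were split, with each enzyme's libraries pooled. Arg-TCG-1-1 (6.25% in DUS1L, 29.5% in DUS2L), Arg-TCG-3-1 (18.7%, 53.7%) and the sparse Arg-TCG-6-1 were higher in DUS2L. Arg-TCG-2-1 (14.7%, 7.76%), Arg-TCG-4-1 (14.9%, 9.09%) and Arg-TCG-5-1 (14.2%, 7.71%) were lower.

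The 4 positions lower in DUS2L were all minor ones, at most 3.32% of the family in any library: position 26 of Lys-TTT and Arg-TCT and position 27 of Phe-GAA and Trp-CCA. Phe-GAA at position 27 had 1.87%, 1.38%, 3.12% and 3.32% in the DUS1L libraries and 0.340%, 0, 1.27% and 0.759% in DUS2L (adjusted p = 0.0308 by edgeR). The DUS2L untreated libraries together held 1 count at this position for Phe-GAA and 1 for Trp-CCA, so no fold is given for either. Lys-TTT had 0.212%, 0, 1.43% and 1.27% in the DUS1L libraries and 0, 0, 0.261% and 0.311% in DUS2L (adjusted p = 0.0212 by edgeR); with 0 of 2544 counts in DUS2L untreated, and the DUS1L untreated library 2 also at 0, it is given no fold either. The log2 difference of Arg-TCT was -2.32 (adjusted p = 0.0145 by edgeR), a size that rests on few counts. Its position 26 held 8 counts in the DUS2L untreated group and 10 in the DUS2L 5-ClUrd group. As each library was left out, this difference ran from -6.83 to -1.88. Each of the 8 calls was lost with at least 1 library left out, and all of them when either DUS1L 5-ClUrd library was left out. As each library was left out, the log2 difference ran from 2.07 to 2.65 for Ala-AGC and from 0.38 to 1.55 for Arg-TCG. With TMM factors 10 were higher and 0 lower, and with the replicate block 2 and 2. With the library total as offset 7 were higher and 29 lower, and Tyr-GTA, Arg-ACG and Arg-TCG turned to -1.56, -2.46 and -1.84.

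Whether 5-ClUrd acted differently at the hinge with the 2 enzymes was tested as the difference of the treatment effects. It passed the threshold at 0 of 54 hinge positions by edgeR and at 0 by DESeq2, against 0.187% higher and 0.747% lower among all 1607 family positions. Without adjustment 3 and 2 had p under 0.05. The SE of this log2 difference had a median of 1.33 over the 54 positions, so that large differences could be missed as well as small ones. The lowest adjusted p was at position 26 of Phe-GAA, a position chosen after its values were seen. It held 14.9% and 18.9% in DUS1L untreated and 3.66% and 5.97% with 5-ClUrd, and 9.52% and 6.67% in DUS2L untreated and 17.2% and 18.8% with 5-ClUrd. The libraries did not overlap within either enzyme and moved in opposite directions, with a log2 difference of effects of 2.96 (SE 0.89, adjusted p = 0.0710 by edgeR). It passed with either DUS1L untreated library left out (log2 3.13 without library 1 and 2.79 without library 2), with each of the 3 other offsets and at a family minimum of 5. It missed the threshold in the other 6 omissions, where the adjusted p by edgeR reached 0.749, and in the other 5 settings.

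Families with a long variable arm (Leu, Ser and SeC, 10 families) had higher hinge shares than the 39 type I families in every library of both enzymes. Their pooled shares were 33.3% and 32.0% in DUS2L untreated and 35.0% and 31.5% with 5-ClUrd, against 7.08%, 8.07%, 7.23% and 4.35% for type I. In DUS1L they were 18.6% and 48.6% untreated and 25.3% and 27% with 5-ClUrd, against 12.1%, 24.5%, 9.49% and 9.69%. The 48.6% of the DUS1L untreated library 2 rests on few counts, as Ser-TGA, the largest of the 10 families there, had 79. Positions 26 and 27 miss the leading position of many type I references, as 22 of 31 with 72-base genes led at position 25. No long-arm reference led there, so the 2 sets are not compared at like positions. The treatment test called 2 rises and 1 fall at position 26 and 0 rises and 2 falls at position 27 of the 10 long-arm families in DUS2L. For type I in DUS2L it called 1 rise and 3 falls among 28 families at position 26 and 1 rise and 3 falls among 29 at position 27. A list of 4 families with intron-bearing genes (Arg-TCT, Ile-TAT, Leu-CAA and Tyr-GTA) had a hinge share of 31.0% ± 1.39 in DUS2L untreated and 34.2% ± 2.31 with 5-ClUrd, and 11.4% ± 3.21 and 10.9% ± 0.272 in DUS1L. In DUS2L 2 of these 4, Tyr-GTA and Leu-CAA, rose at position 26, beside 3 of all 38 families tested there, and both calls were lost with TMM factors, without either untreated library and without the 5-ClUrd library 1. The list is not uniform: Arg-TCT-4-1, with a gene of 74 bases, had 11.1% of its counts over all libraries at position 27, against 1.71% for the 85-base and 0.937% for the 88-base gene of that family. Tyr-ATA, with a 93-base gene, was not on the list.

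The authors' peaks, called per library, covered the hinge in each library as well. Of 37 to 216 tRNA sense peaks, 11 to 42 overlapped position 26 or 27, in 6 to 16 families. They held between 21.2% of the hinge counts, in the DUS1L untreated library 1, and 68.7%, in the DUS2L 5-ClUrd library 1. The share was 64.8% in the other DUS2L 5-ClUrd library, 42.2% and 44.4% in DUS2L untreated, and 35.4% to 40.6% in the other DUS1L libraries.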

How the data were processed

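Crosslink sites of 8 iCLIP libraries were analysed (4 groups of 2). The deposited values are counts per single position of a reference, as the authors made them, with peaks whose deposited counts equal the sum of the sites inside them. The submitters' processing notes name STAR 2.7.0f and hg38; no source used here states the peak caller, how molecular identifiers were handled, or whether a site is the first read base or the base before it. Sites were placed by the deposited position counted from the 5' end of the reference. Counts were summed by family and position over references, which share near-identical sequences, so reads may be split between them. Rows were tested with edgeR 4.0.16 (R 4.3.3; glmQLFit and glmQLFTest; offset, the log of the family's total), for families with at least 20 counts in each fitted library and rows with at least 10 counts, at an adjusted p of 0.05. A single-library value is limited by counting error, and 3 counts of a library's tRNA total correspond to 0.000368% to 0.0409%. The fits were tested on simulated data. Recovery of simulated 4-fold and 8-fold changes was 4% and 28.5% for DUS1L treatment and 27% and 52% for DUS2L treatment. It was 38.5% and 74% between the enzymes, and 0 and 6.5% for the difference of treatment effects. At 4-fold 11.1% of the DUS1L calls were false. Pooled shares were compared with exact permutation tests. The named families were the 10 with the highest hinge share in the 5-ClUrd libraries of each enzyme, and, for each comparison, up to 5 rises and 5 falls past the threshold with the largest change, without overlap of libraries for the treatments. The other 4 DUS2L falls, and families given for contrast or with their amino acid, were named after their values were seen. Members and lists were chosen with earlier results of these data known. Same-numbered libraries did not deviate together (correlation -0.104 in DUS1L and -0.0194 in DUS2L), so no pairing was used. Alternatives were another offset, TMM factors, DESeq2 1.42.0, other minimums, a replicate block, sites above 500 counts left out, 1 fit of all 8 libraries and each library left out.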

Additional observations from a re-analysis of the deposited data

How the results depend on the processing

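The fit of all 8 libraries could take only the 27 families with at least 20 counts in every library. Numbers of hinge positions called, rises then falls, moved by more than 1.5 times as follows. For DUS1L (2 and 1) they were 16 and 4 with the library total as offset, 1 rise with TMM factors, 3 falls with the family total outside the hinge, 9 and 6 with DESeq2, 0 rises at a family minimum of 100, 2 falls without sites above 500 counts and 3 falls in 1 fit of all 8 libraries; leaving out a library gave 0 to 12 and 0 to 6. For DUS2L (4 and 9) they were 16 rises with the library total, 0 rises with TMM factors, 2 and 5 with DESeq2, 2 rises at a row minimum of 1, 2 and 2 without sites above 500 counts and 0 and 1 in the fit of all 8 libraries; leaving out a library gave 0 to 6 and 1 to 12. For DUS2L against DUS1L (4 and 4) they were 7 and 29 with the library total, 10 and 0 with TMM factors, 2 lower at a family minimum of 100 and 1 and 2 without sites above 500 counts; leaving out a library gave 0 to 13 and 0 to 8. For the difference of treatment effects (0 and 0) they were 1 and 3 with the library total, 1 with TMM factors, 2 with the family total outside the hinge and 1 at a family minimum of 5, all higher but the 3; leaving out a library gave 0 to 4 and 0 to 4.

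The numbers of the replicates share only a number. With the replicate block DUS1L had 0 rises and 0 falls and the enzyme comparison 2 and 2; the DUS2L treatment had 3 and 9. Crossing the numbers in DUS1L, an alternative chosen after seeing the data, gave 0 and 0.

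Signs turned at single positions: for DUS1L Arg-CCG at 26 (2.92 without sites above 500 counts); for DUS2L, with the library total, Leu-CAG at 26 (-0.43), Leu-CAA at 26 (-0.44), Met-CAT at 26 (0.23) and Ile-AAT at 27 (0.16); between enzymes, with the library total, Tyr-GTA at 27 (-1.56), Arg-ACG at 26 (-2.46) and Arg-TCG at 26 (-1.84). The pooled DUS2L minus DUS1L share was 3.73 points with families weighted equally and 1.12 without sites above 500 counts, and -3.45 to 3.12 with a library left out. The pooled DUS1L treatment difference was 2.00 without those sites and -14.1 to -0.999 with a library left out; for DUS2L the latter range was -6.42 to -2.18. The cause was not tested. Where an omission leaves 1 library in a group, the fit takes its spread from the other groups. The library total also carries changes in how much of a family was recovered. Alignment on the anticodon and lists by the hinge base, both planned, were not run because no tRNA sequences were used. Of other alternatives for single positions, 185 kept their side of the threshold, 53 lost it and 4 gained it. Depth limits the DUS1L untreated group most, through its library 2.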
